A study of Mus musculus with 2 samples.

Results

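The 10 genes described here are ones through which tumour cells are known to restrain immune attack, measured in the mouse pancreatic cancer line KPCY 6419c5. They were chosen by name as the matrix rows Cd274, Cd276, Cd47, Pvr, Nectin2, Nt5e, Lgals9, Ptgs2, Epha2 and Vtcn1. All 10 were found, among 33696 features. The data were 1 library, in which clones 76 and 84 of the line had been pooled at equal numbers after 19 days of editing. KPCY lines come from tumours of mice in which Cre driven by the Pdx1 promoter switches on tumour-forming alleles and a yellow fluorescent reporter in the pancreas. Both clones carried the BASELINE lineage-tracing system, had been transfected with Cas12a-ABE, an adenine base editor built on Cas12a, and were grown up from sorted single cells. Each clone therefore stems from 1 cell, and no unedited control was in the library. A library of clones 1, 32, 33, 52 and 76 was not analysed here.

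Cells carried no clone label, so 2 classes were cut from marker genes that are no members. A barcode was kept if it had 2000 or more unique molecular identifiers (UMIs, each marking 1 captured transcript), 1000 or more genes and no more than 15% of UMIs from mitochondrial genes. Of the 21361 kept cells, 7816 were A cells and 8936 were B cells. A cells had at least 2 UMIs of Pde10a, Plcb1, Galnt18, Arhgap15 and Ceacam1 together, and at least 3 times the B sum. B cells were cut in the mirrored way on S100a7a, Rgs20, Hs6st2, Ccbe1, Ctse and Mal. The other 4609 cells were in neither class. Of these, 3966 had under 2 UMIs of each list, and 643 had UMIs of both. Which class is which clone is not known here. Each class is 1 sample, so no test was possible. All intervals are 95% intervals of counting error, exact except for those of co-detection ratios, and the spread between cultures is unknown.

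Tumour cells meet immune cells through several separate routes. Cd274 (PD-L1), Cd276 (B7-H3) and Vtcn1 (B7-H4) belong to the B7 family of T-cell co-regulators, and Cd47 is the signal that restrains phagocytosis through SIRPα. Pvr and Nectin2 are the ligands that TIGIT and CD226 compete for on T and NK cells. Nt5e (CD73) makes adenosine outside the cell, Lgals9 is a secreted galectin that binds TIM-3, and Ptgs2 (COX-2) starts the synthesis of prostaglandin E2. Epha2 is a receptor tyrosine kinase that has been tied to Ptgs2 and to T-cell exclusion in KPCY tumours.

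Among the members with at least 10 CPM in either class, the widest difference was in Ptgs2, the inducible enzyme of prostaglandin synthesis. It had 26.1 CPM (24.5 to 27.7), where CPM are UMIs of the gene per 1000000 UMIs of the class, in A cells and 194 CPM (191 to 198) in B cells. This was a 7.45-fold higher level in B cells (6.99 to 7.94). Cd276 was also higher in B cells, by 2.23-fold, whereas Nectin2 was higher in A cells, by 2.33-fold. Cd47, Lgals9 and Epha2, the other abundant members, differed by less than 2-fold. Pvr differed least, and its interval included equal levels.

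**Figure D1:**
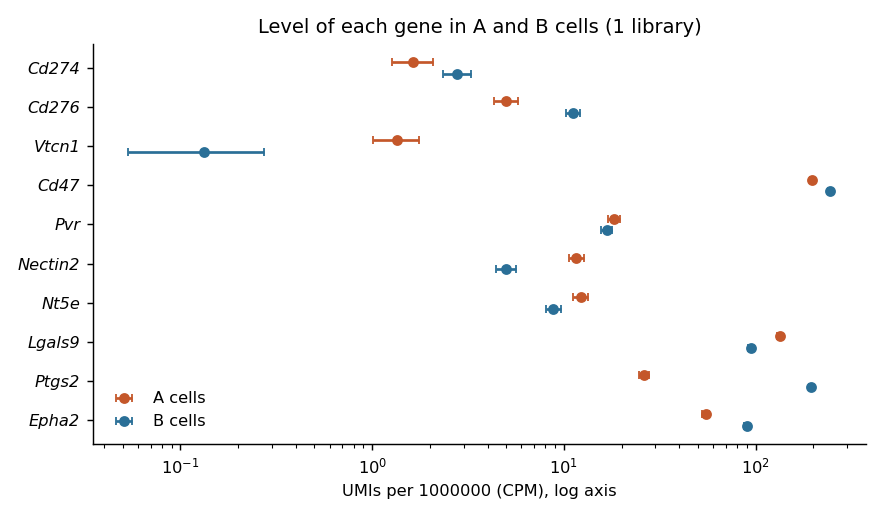
Level of each gene in A cells (orange) and B cells (blue), in CPM on a log axis; bars are exact 95% Poisson intervals on the summed UMIs of 1 library. The levels run from 0.133 CPM (Vtcn1 in B cells) to 244 CPM (Cd47 in B cells), and Ptgs2 and Vtcn1 show the widest gaps.

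Because Ptgs2 and Epha2 are discussed together below, the 250 bases before their RefSeq starts are shown (GRCm38.p6, plus strand, 5′ to 3′). Ptgs2 lies at chr1:150099781-150100030 and Epha2 at chr4:141300971-141301220. The submitters counted on another build, GRCm39, so these serve as sequence only. Capitals mark matches on either strand to a GC box (GGGCGG), a C/EBP site (TTGCGCAA) or a cAMP response element (TGACGTCA).
Ptgs2: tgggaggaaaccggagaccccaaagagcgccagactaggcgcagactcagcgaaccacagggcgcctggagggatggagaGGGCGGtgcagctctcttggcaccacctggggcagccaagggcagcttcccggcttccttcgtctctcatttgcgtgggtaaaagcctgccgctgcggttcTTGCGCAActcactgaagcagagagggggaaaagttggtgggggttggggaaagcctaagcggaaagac
Epha2: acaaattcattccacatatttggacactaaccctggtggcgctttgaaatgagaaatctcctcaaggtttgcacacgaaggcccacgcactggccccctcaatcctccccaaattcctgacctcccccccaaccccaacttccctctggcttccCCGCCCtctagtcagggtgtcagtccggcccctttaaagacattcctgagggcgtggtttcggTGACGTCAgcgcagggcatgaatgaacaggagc

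Motifs were searched in the full RefSeq window, from 250 bases before to 50 after the start, and 9 of the 10 members had one. The C/EBP letters of Ptgs2 begin at position -69 and occur in 0.183% of 32851 windows. An E-box (CACGTG, both strands) begins at position 17 of Ptgs2, and 7.15% of windows hold one. The cAMP response element of Epha2 begins at position -33, and one occurs at position 40 of Nectin2. It is present in 1.79% of windows. Lgals9 held 2 matches to an interferon-stimulated response element-like motif, which 3.44% of windows hold. Vtcn1 held an AP-1 match (TGANTCA, 7.81% of windows) at position 2. The GC box is common, in 35.7% of windows, and was found in Cd274, Cd276, Cd47, Nectin2, Nt5e, Ptgs2 and Epha2. For Cd47, Nectin2, Nt5e and Cd276 the RefSeq start lies over 300 bases from the GENCODE M21 start, so their windows may not be the promoter used in these cells. These matches are letters in a window, and binding was not measured.

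Of the 8789 features with at least 10 CPM in either class, 17.5% differed by 2-fold or more, 10.3% higher in A cells and 7.2% higher in B cells. This minimum was passed by 8 members, of which 3 were past 2-fold. Ptgs2 and Cd276 were higher in B cells and Nectin2 in A cells. This count needs caution, since Cd276, Nectin2 and Nt5e passed the minimum in only 1 class, the one where they were higher. Among the 5 members with 10 CPM in both classes, Ptgs2 was the one past 2-fold. It was also the only one past 2-fold of the 4 members at 50 CPM, where 14% of features were, 7.49% higher in A cells and 6.54% higher in B cells. Over all 10 members, 5 were higher in A cells and 5 in B cells, with a median log2 ratio (A over B) of -0.10, against 0.17 over all features at 10 CPM.

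**Figure D2:**
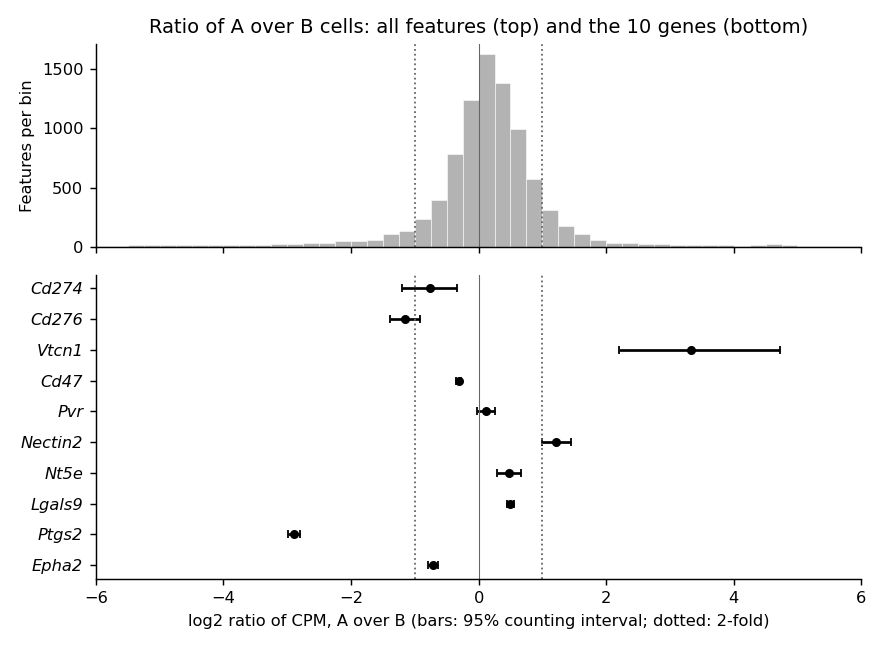
Top, number of features per bin of log2 ratio (A over B cells) among the 8789 with at least 10 CPM in either class; features beyond 6 in either direction were put in the end bins. Bottom, the 10 genes with exact 95% counting intervals; Ptgs2 lies at -2.90, outside the dotted 2-fold lines, and Pvr at 0.12.

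The B7 family was sparse in these cells. Cd274, the ligand of PD-1, had 66 UMIs in A cells and 147 in B cells, or 1.64 CPM (1.27 to 2.08) and 2.79 CPM (2.35 to 3.27). A UMI was seen in 64 A cells and 146 B cells. The level was 1.70-fold higher in B cells (1.26 to 2.31). Cd276, whose receptor is not settled, had 4.99 CPM (4.32 to 5.73) in A cells and 11.1 CPM (10.2 to 12.1) in B cells. Vtcn1, which inhibits T cells, had 54 UMIs in A cells and 7 in B cells, or 1.34 and 0.133 CPM. That is a ratio of 10.1 for A over B cells, with a wide counting interval of 4.59 to 26.3. In cells of 4000 to 6000 UMIs its log2 ratio was 2.11 rather than 3.34, and with a stricter class rule it was 4.03. These 3 genes were therefore seen in few cells of either class.

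The list of B7-family and related genes had 10 others in the matrix, of which 1 reached 10 CPM. Igsf11, a ligand of VISTA, reached it only in B cells and had 0.422 CPM in A cells and 16.2 CPM in B cells, 38.3-fold higher. Cd80, Cd86, Icosl and Pdcd1lg2, the ligands of CD28, CTLA-4, ICOS and PD-1, were under 1 CPM in both classes. Of 13 genes known to act on PD-L1 level, 11 reached 10 CPM and 1 of these, Jak2, was past 2-fold, beside 17.5% of all features. Jak2, a kinase of the interferon-γ receptor, had 13.2 CPM in A cells and 29.9 CPM in B cells. The median log2 ratio of the 11 was 0.15. The receptor chain Ifngr2 had 156 and 89.4 CPM.

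Cd47 was the most abundant member in both classes. It had 196 CPM (192 to 201) in A cells and 244 CPM (240 to 248) in B cells, 1.24-fold higher in B cells (1.21 to 1.28). To compare shares of cells, each cell was thinned to 3000 UMIs, which left out 410 A cells and 109 B cells. A Cd47 UMI was then present in 43.3% of A cells (42.2 to 44.4%) and 51.4% of B cells. Without thinning the shares were 60.2% and 72.5%. Cd47 made up 42.6% of the members' summed CPM in A cells and 36.6% in B cells. Its receptor Sirpa had 0 UMIs in both classes, which allows up to 0.0745 CPM in A cells and 0.0568 CPM in B cells, taken as 3 UMIs of each total. Thbs1, a secreted ligand of CD47, had 101 CPM in A cells and 17.7 CPM in B cells, 5.68-fold higher in A cells. Qpctl, which modifies CD47 for SIRPα binding, had 5.46 and 4.40 CPM.

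The paired ligands Pvr and Nectin2 did not move alike. Pvr had 18.3 CPM (17.0 to 19.6) in A cells and 16.8 CPM (15.7 to 17.9) in B cells, a ratio of 1.09 for A over B (0.986 to 1.20). The sign of this small difference depended on scaling, as its log2 ratio was 0.12 and became -0.05 when centred on the median of all features. Nectin2 had 11.6 CPM (10.6 to 12.7) in A cells and 4.98 CPM (4.40 to 5.62) in B cells. After thinning, a Nectin2 UMI was present in 3.17% of A cells and 1.43% of B cells, and without thinning in 5.74% and 2.85%. Of the 11 other genes of the nectin list, 3 reached 10 CPM. Nectin3, a binding partner of both ligands, went the other way from Nectin2, with 22.6 CPM in A cells and 50.2 CPM in B cells. The adaptor Afdn had 203 and 176 CPM. The lymphocyte receptors Cd226 and Cd96 were under 1 CPM in both classes and Pvrig had 0 UMIs. Tigit, chosen after its values were seen, had 5 UMIs in A cells and 212 in B cells, or 0.124 and 4.02 CPM. Whether intronic reads were counted is not given in the sources used here, and such low levels may depend on it.

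Nt5e and Lgals9 were moderately higher in A cells. Nt5e had 12.3 CPM (11.2 to 13.4) in A cells and 8.81 CPM (8.03 to 9.65) in B cells, 1.39-fold higher in A cells (1.22 to 1.58). The enzyme that supplies its substrate, Entpd1, had 1 UMI in A cells and 8 in B cells. None of the 3 other adenosine genes at 10 CPM was past 2-fold, as were 17.5% of all features. Adk, which clears adenosine, had 197 and 192 CPM, the transporter Slc29a1 had 63.6 and 74.3 CPM, and Enpp1 had 21.9 and 20.8 CPM. The receptors Adora2a and Adora2b were under 1 CPM in both classes.

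Lgals9 had 133 CPM (130 to 137) in A cells and 94.3 CPM (91.7 to 96.9) in B cells, 1.41-fold higher in A cells (1.36 to 1.47). A UMI was present in 31.5% of thinned A cells and 23.2% of thinned B cells, and in 46.4% and 39.2% without thinning. Some genes of the galectin list were more abundant and some differed more. Lgals2 had 204 CPM in A cells and 2768 CPM in B cells, and Lgals3, which binds many glycoproteins, had 431 and 988 CPM. Lgals3bp, a secreted binding partner of galectin-3, had 190 and 31.7 CPM. Thus 1 of the 6 other galectin-list genes at 10 CPM was past 2-fold towards A cells and 2 towards B cells, beside 10.3% and 7.2% of all features. Havcr2, which encodes the TIM-3 receptor, had 0.546 CPM in A cells and 6.48 CPM in B cells, and was chosen after its values were seen.

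Ptgs2 was seen in a minority of A cells and a large share of B cells. After thinning, 6.51% of A cells (5.96 to 7.09%) and 40.3% of B cells had a Ptgs2 UMI, and without thinning 10.8% and 58.9%. The variance of its UMIs per thinned cell over the mean was 1.32 in A cells and 1.26 in B cells. That was the highest of the 10 members in each class, where the other 9 lay between 0.991 and 1.08 in A cells and between 0.985 and 1.08 in B cells. In B cells 59.7% had no Ptgs2 UMI, against 56.0% for a Poisson count of the same mean. At least 3 UMIs were found in 3.61% of B cells and 0.162% of A cells. Single cells reached 13 UMIs among A cells and 20 among B cells before thinning.

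**Figure D3:**
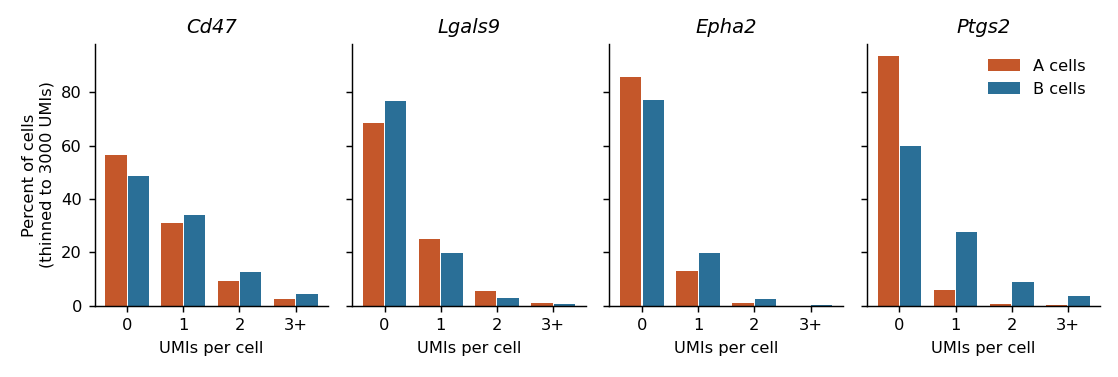
Percent of A cells (orange) and B cells (blue) with 0, 1, 2 or at least 3 UMIs of Cd47, Lgals9, Epha2 and Ptgs2 after each cell was thinned to 3000 UMIs. For Ptgs2 the bar at 0 UMIs is 93.5% in A cells and 59.7% in B cells, the largest gap of the 4 genes drawn.

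The level of Ptgs2 in A cells was 13.4% of that in B cells. Free RNA in the pool can carry UMIs between classes, and no cell type lacking these genes was present to measure it. As a guide, the lowest such ratio among the 1648 features that were higher in B cells and had at least 50 CPM, the genes of the class rule left out, was 1.39%, and the median of the 10 lowest was 3.06%. For Vtcn1 the level in B cells was 9.89% of that in A cells, where the 10 lowest ratios of A-high features had a median of 3.20%. Whether the Ptgs2 UMIs of A cells or the Vtcn1 UMIs of B cells are such carry-over was not tested. Nor was it for the few Tigit and Igsf11 UMIs of A cells.

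Other genes of prostaglandin E2 handling differed in both directions. Of the 15 other genes of this list, 11 reached 10 CPM, 4 were past 2-fold towards B cells and 2 towards A cells, beside 17.5% of all features. Of these 6 genes, 4 (Ptgs1, Hpgd, Slco2a1 and Ptger4) reached 10 CPM only in the class where they were higher, so the count is a description and supports nothing about the list. Ptgs1, the constitutive cyclooxygenase, had 3.77 CPM in A cells and 60.5 CPM in B cells, 16.0-fold higher. Hpgd, the enzyme that inactivates prostaglandin E2, had 4.02 and 28.7 CPM, and the uptake transporter Slco2a1 had 6.06 and 42.4 CPM. Both were about as many times higher in B cells as Ptgs2, at 7.14-fold and 6.997-fold. Akr1b3, an aldo-keto reductase reported to form prostaglandin F2α, had 106 and 221 CPM.

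Ptger4, which encodes the EP4 receptor of prostaglandin E2, was higher in A cells, at 12.6 CPM (11.6 to 13.8) against 0.891 CPM (0.654 to 1.18). That is 14.2-fold. The carbonyl reductase Cbr1 had 95.6 CPM in A cells and 23.5 CPM in B cells. The synthases that act after the cyclooxygenases were within 2-fold: Ptges had 20.3 and 10.95 CPM, Ptges2 had 20.5 and 19.97 CPM, and Ptges3 had 678 and 698 CPM. Pla2g4a, which frees the arachidonic acid substrate, had 33.6 and 48.9 CPM, and the exporter Abcc4 had 43.6 and 45.4 CPM. Ptger1, Ptger2 and Ptger3 were under 1 CPM in both classes.

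**Figure D4:**
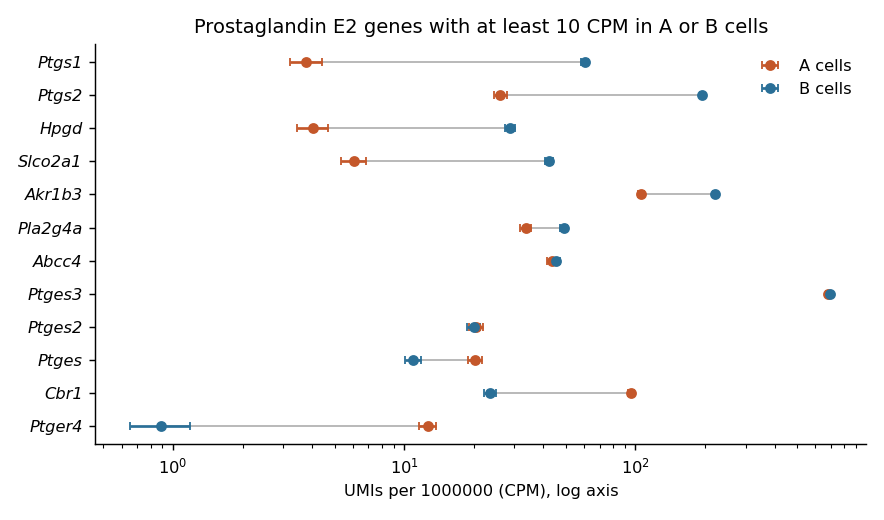
Level of the 12 prostaglandin E2 genes, Ptgs2 included, with at least 10 CPM in either class, in A cells (orange) and B cells (blue), on a log axis with exact 95% Poisson intervals; a grey line joins the classes. Genes run from Ptgs1, most in favour of B cells, to Ptger4, most in favour of A cells.

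Ptgs2os, a noncoding gene chosen after its values were seen, lies head to head with Ptgs2. In GENCODE M21 it starts 68 bases before the Ptgs2 start, inside the window shown above, on the other strand, and the pair do not overlap. It had 10.9 CPM in A cells and 45.3 CPM in B cells, 4.14-fold higher (3.74 to 4.60). Within thinned B cells, 15.2% of cells with a Ptgs2 UMI and 10.2% of cells without one had a Ptgs2os UMI. The joint share was 1.24 times the product of the single shares (1.14 to 1.35). The same ratio lay between 0.955 and 1.08 for the 10 other prostaglandin genes at 10 CPM in B cells. In A cells it was 1.38 for Ptgs2os, with an interval of 0.858 to 2.12.

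Epha2 had 54.8 CPM (52.5 to 57.1) in A cells and 89.8 CPM (87.3 to 92.4) in B cells, 1.64-fold higher in B cells (1.56 to 1.73). A UMI was present in 14.4% of thinned A cells and 22.7% of thinned B cells, and in 23.5% and 39.0% without thinning. Of the 11 other genes of the ephrin-A list, 4 reached 10 CPM and 2 were past 2-fold, both towards B cells, of which Efna1 reached 10 CPM only there, beside 7.2% of all features in that direction. Efna1, a ligand of EPHA2, had 5.07 and 12.6 CPM, and the related receptor Epha4 had 39.7 and 147 CPM. The ligand Efna5 had 154 and 161 CPM.

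A list of 20 other genes of immune evasion or recognition had 9 at 10 CPM, of which 4 were past 2-fold towards B cells and 1 towards A cells. Serpinb9 and H2-T23 reached 10 CPM only in B cells, where they were higher, and 17.5% of all features were past 2-fold. The median log2 ratio of the 9 was -0.29. Serpinb9, an inhibitor of granzyme B, had 9.56 and 21.6 CPM, and H2-T23, which encodes the NKG2A ligand Qa-1, had 4.20 and 15.05 CPM. Ulbp1, a ligand of the activating receptor NKG2D, had 16.4 and 41.8 CPM, so the counts and the median do not cover evasion genes alone. The fourth was the glycosyltransferase Galnt3, with 36.1 and 107 CPM. Vegfa, an angiogenic factor, was higher in A cells, with 40.0 against 17.1 CPM. Tgfb1 had 25.3 and 30.9 CPM, while Ido1 and Il10 were under 1 CPM in both classes.

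Some members were graded within the classes. States were cut from other genes, with at least 2 UMIs of one list and 3 times the other: 1142 A cells with S100g, Epcam and Tm4sf20, 2478 A cells with Tnc, Acta2 and Ptchd4, 541 B cells with Krt14 and Sprr1a, and 4714 B cells with Areg, Btc and Cftr. None of the members at 10 CPM was past 2-fold between the states of a class, as were 4.44% of features in A cells and 1.97% in B cells. Nectin2 had 19.1 CPM in S100g/Epcam cells and 10.9 CPM in Tnc/Acta2 cells, and Nt5e had 18.1 and 9.75 CPM. In B cells Nectin2 had 7.83 CPM in Krt14/Sprr1a cells and 4.61 CPM in Areg/Btc/Cftr cells, and Nt5e had 11.9 and 7.15 CPM. Counting intervals of all 4 ratios excluded equal levels. Vtcn1, under 10 CPM, had 15 UMIs in each A state, or 2.68 CPM in S100g/Epcam cells and 1.07 CPM in Tnc/Acta2 cells (log2 0.19 to 2.46).

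Lgals9 had 162 and 128 CPM in the A states and 148 and 83.5 CPM in the B states, in the same order, so Krt14/Sprr1a B cells had more Lgals9 than Tnc/Acta2 A cells. Cd276 had 6.67 CPM in Krt14/Sprr1a cells and 11.3 CPM in Areg/Btc/Cftr cells. Epha2 had 43.3 and 61.7 CPM in the A states and 93.9 and 91.5 CPM in the B states. Ptgs2 had 23.4 and 31.7 CPM in the A states and 252 and 191 CPM in the B states. Its lower B state was still above its higher A state, which among the members at 10 CPM also held for Cd276, Cd47 and Epha2.

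**Figure D5:**
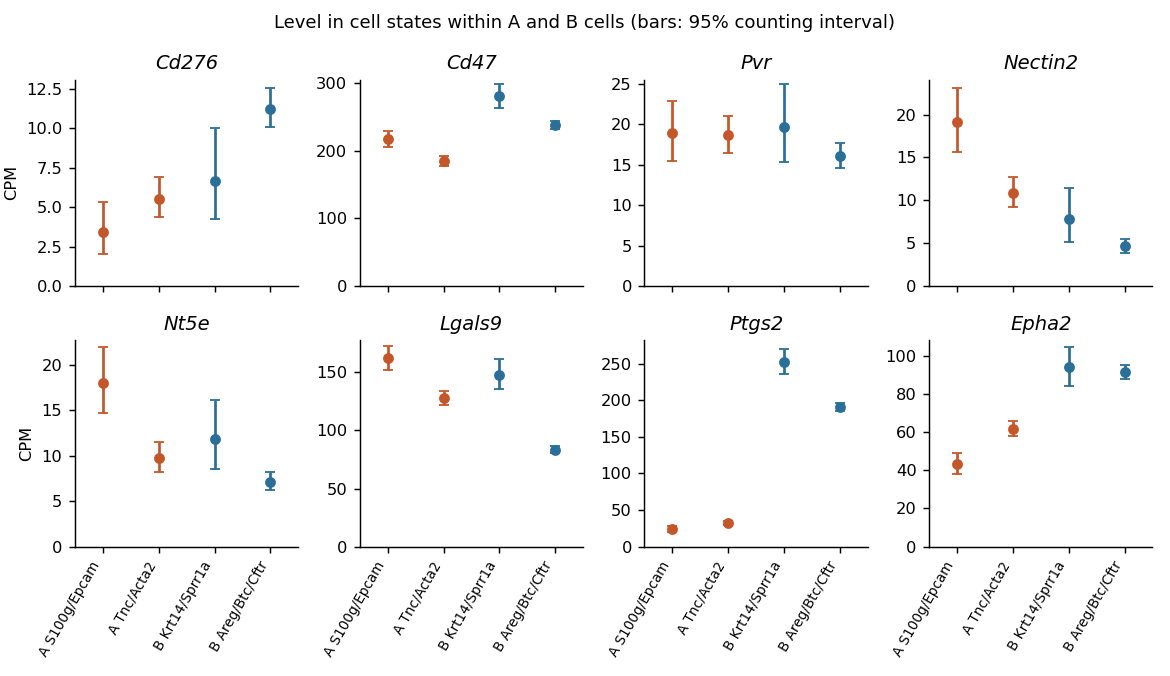
Level in CPM of the 8 genes with at least 10 CPM in A or B cells, in 2 states of A cells (orange) and 2 states of B cells (blue); bars are exact 95% Poisson intervals of 1 library. Ptgs2, Cd47 and Epha2 separate the classes in every state drawn, with intervals that do not overlap, whereas Lgals9 and Nt5e overlap between classes.

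Ranges of other scores gave further differences, each between the 25% of cells of a class with the highest score and the 25% with the lowest, ties kept. By the share of UMIs in early response genes (Fos, Jun, Egr1 and others), Ptgs2 had 39.0 CPM in high and 20.5 CPM in low A cells, and 244 and 151 CPM in B cells. None of the members at 10 CPM was past 2-fold there, as were 0.446% of features in A cells and 0.261% in B cells. By G2/M genes, Ptgs2 had 17.7 CPM in high and 35.8 CPM in low A cells, and 165 and 218 CPM in B cells. The former was past 2-fold, as were 3.99% of features in A cells and 2.45% in B cells. Ptgs2 was thus higher in cells with more early response transcripts and lower in cells with more G2/M transcripts, in both classes. By early response genes Lgals9 had 146 and 124 CPM in A cells and 111 and 84.5 CPM in B cells. Pvr and Epha2 also rose in both classes. By G2/M genes Lgals9 had 128 and 154 CPM in A cells and 86.3 and 115 CPM in B cells. Nt5e also fell in both. Counting intervals of these ratios excluded equal levels. No further member at 10 CPM had this in both classes. The early response list also differed between the classes, with a sum of 309 CPM in A cells and 674 CPM in B cells. Of its 8 genes at 10 CPM, 3 were past 2-fold towards B cells, beside 7.2% of all features, and 1 of the 3 reached 10 CPM in 1 class only. The part of this list in the class difference of Ptgs2 was not tested.

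By interferon genes, Lgals9 had 151 CPM in high and 122 CPM in low A cells, and 107 and 85.5 CPM in B cells. No member at 10 CPM was past 2-fold, as were 0.236% of features in A cells and 0.112% in B cells. The difference of Lgals9 was not particular to this score, since those by early response and G2/M genes were of like size. The interferon list itself summed to 524 CPM in A cells and 341 CPM in B cells. Its part in the class difference of Lgals9 was not tested. By interferon genes Cd274, a known interferon target, had 1.97 and 1.54 CPM in high and low A cells, and 2.98 and 2.75 CPM in B cells. The log2 intervals of Cd274 were -0.70 to 1.44 and -0.57 to 0.81, so a 1.5-fold difference was not detectable at this depth. Vtcn1, also under 10 CPM, had 23 UMIs in high and 8 in low A cells, or 2.39 and 0.824 CPM (log2 0.33 to 2.91). The mitochondrial share, whose median was 3.19% in A cells and 1.89% in B cells, also moved with Ptgs2. Ptgs2 had 22.7 CPM in A cells of high share and 34.3 CPM in those of low share, and 179 and 205 CPM in B cells. Epha2 had 51.2 and 59.3 CPM in A cells. Nectin2 was higher at high share in A cells, with 14.9 and 9.76 CPM (log2 0.23 to 0.998), and had 5.60 and 5.59 CPM in B cells. Lgals9 had 154 and 127 CPM in A cells and 106 and 86.3 CPM in B cells. In A cells Vtcn1 was also higher at high share, with 3.55 CPM (33 UMIs) against 0.966 CPM (10 UMIs) at low share. So was Cd274, with 2.47 and 1.06 CPM (log2 0.12 to 2.40). By total UMIs per cell, Epha2 had 63.6 CPM in high and 44.9 CPM in low A cells, and 95.5 and 82.0 CPM in B cells. Ptgs2 had 28.6 and 24.1 CPM in A cells and 188 and 167 CPM in B cells. In A cells Cd274 had 1.52 CPM in high and 3.38 CPM in low cells, and Vtcn1 had 1.06 and 2.61 CPM. The part of mitochondrial share in the differences between the classes was not tested. For Ptgs2, all of these differences within a class were smaller than that between the classes.

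Members were detected together about as often as their single shares gave. In thinned cells, 27.3% of A cells and 15.2% of B cells had no UMI of any member, and 43.0% and 37.6% had a UMI of 1 member. Of 45 pairs, 26 in A cells and 28 in B cells had a product of shares equal to at least 10 cells. Their ratio of joint share to product ran from 0.800 to 1.44 in A cells (median 1.03) and from 0.657 to 1.33 in B cells (median 0.990). The interval given for a ratio is that of the joint share, divided by the product, which is taken as fixed. It leaves out that the same cells set the single shares, so it is not exact and can be too wide for common genes. This interval excluded 1 for 1 of the 26 pairs in A cells and 0 of the 28 in B cells. The pair was Ptgs2 and Epha2, with 90 A cells where the product gave 69.4, a ratio of 1.30 (1.04 to 1.59). In B cells the ratio of this pair was 1.06 (0.996 to 1.13), with 858 cells against 808. Both genes are common there, so this interval cannot decide whether the ratio differed from 1. In A cells the ratio of the pair was 1.36 when cells were thinned to 2000 UMIs and 1.23 without thinning. It was 1.10 when barcodes marked as doublets were left out and cells were thinned anew. The highest correlation of any pair with a product of at least 10 cells was 0.060 in A cells. Correlations of this size in sparse counts are no finding. Below that product, the interval also excluded 1 for Nectin2 and Nt5e in B cells, with 8 cells against 3.21 (2.49, 1.08 to 4.91). The other such pair was Cd274 and Nt5e in A cells, with 4 cells against 1.05 (3.80, 1.03 to 9.72).

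For the 4 members with at least 20 CPM in both classes, the features most like each were sought among 5516 that passed the same minimum, by the lower of the 2 Pearson correlations across 7816 A cells and 8936 B cells. For Ptgs2 they were Tnfrsf12a (0.079 and 0.099), Ier3 (0.077 and 0.147) and Rdh10 (0.074 and 0.075). For Epha2 they were Ccn1 (0.063 and 0.064), F3 (0.062 and 0.082) and Lmo7 (0.063 and 0.050). Malat1 and Crip1 were among the 3 for both Cd47 and Lgals9, together with Actg1 and Nupr1. The correlations are weak, and cells of a class share library and depth.

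Members lie on 8 chromosomes by GENCODE M21, and some chromosomes differed between the classes as a whole. On chromosome 19, which holds Cd274, the median log2 ratio of 304 features was -0.51, beside -0.77 for Cd274. The 20 features nearest to it had a median of -0.48. On chromosome 7 the median was 0.60, beside 1.22 for Nectin2 and 0.12 for Pvr, and the features nearest to them had medians of 0.28 and 0.41. On chromosome 16 the median was 0.42, whereas Cd47, which lies there, was at -0.31 and its 20 nearest features at -0.0055, or 0.28 among features of at least 50 CPM. For Ptgs2 on chromosome 1, the chromosome median was 0.02 and that of its nearest features was -0.11, far from its own -2.90. Its nearest expressed neighbours were Ptgs2os on one side, at -2.05, and Odr4 on the other, at 0.26. DNA was not measured, and the part of chromosome-wide shifts in these ratios was not tested.

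The library held 22178 barcodes and 116505698 UMIs, and median depth was 4699.5 UMIs in A cells and 5440.5 in B cells. In cells of 4000 to 6000 UMIs, the log2 ratio of Ptgs2 was -3.07, and it was -2.90 over all depths. The carcinoma label was checked against epithelial keratins: Krt18 had 1083 CPM in A cells and 3019 CPM in B cells and Krt19 had 618 and 1584 CPM. Of the 10 genes of the epithelial list, 7 reached 10 CPM. Of these 7, 5 were past 2-fold towards B cells and 1, Epcam, towards A cells (31.8 against 3.17 CPM), beside 7.2% and 10.3% of all features in those directions, while Cldn4 was under 1 CPM in both. Of 18 immune markers 6 were at 0, Ptprc had 4 and 2 UMIs, and the list summed to 39.1 and 35.4 CPM, mostly Cd14 (36.8 and 21.8 CPM). S100a8 (0.348 and 9.66 CPM) and S100a9 (0.0497 and 2.84 CPM) went the other way, and no other gene of the list exceeded 1.02 CPM. The fibroblast list summed to 2.28 and 1.69 CPM, with Col1a2, Dcn and Lum at 0. The endothelial list summed to 9.51 CPM in A cells and 1.21 CPM in B cells, mostly Vwf (5.12 and 0.246 CPM) and Tek (3.43 and 0.152 CPM), with Kdr, Emcn and Cldn5 at 0. The acinar and endocrine list summed to 13.7 and 4.45 CPM, mostly Prss2 (10.01 and 4.21 CPM) and Cela1 (3.65 and 0.171 CPM), with Cpa1, Pnlip, Ins1, Gcg and Sst at 0. The part of these genes in the differences of the members was not tested. At the edge of the class rule, Ptgs2 had 160 CPM in cells with 2 UMIs of the B list and none of the A list, just inside, and 137 CPM in cells with 1, just outside. For the A list it had 23.5 CPM just inside and 22.8 CPM just outside.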

How the data were processed

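Single cells were profiled with the droplet 3′ v4 chemistry, per the labels' protocols. The deposited matrix holds raw UMI counts per gene and barcode, written by Cell Ranger 8.0.1 per the file headers. The genome build was GRCm39, per the submitters' processing notes. The annotation, use of strand and of intronic reads, and cell-calling settings are not given in the sources used here. Each UMI marks a transcript end, so levels were not divided by length.

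UMIs were summed over A cells and over B cells and scaled to CPM. Intervals are exact Poisson (levels), conditional binomial (ratios) and Clopper-Pearson (shares), at 95%. For co-detection ratios, the Clopper-Pearson interval of the joint share was divided by the product of the single shares, which is not exact. Thinning drew 3000 UMIs per cell without replacement. Doublets were removed only as the class rule does, and Scrublet (scanpy 1.11.5) served as an alternative. It marked 3.64% of cells, 1.87% of A and 2.33% of B cells. For chromosomes, 31961 features matched GENCODE M21 (GRCm38), used for names and order. Promoters are from RefSeq. The steps were tested on simulated data.

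The members, classes, states and lists were chosen with earlier results of these data known, and motifs after the levels were seen. Named genes were the members, the up to 4 most abundant genes per list and direction past 2-fold, absent partners, and the 3 most alike features. Other list genes were added for context after their values were seen. Alternatives were cell filters, class rules, depth, scaling and minimum levels.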

Additional observations from a re-analysis of the deposited data

Results flagged for a closer look

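The 4609 cells in neither class stayed outside the comparison, and are listed here because the members were also counted in them, at 11528 UMIs. Their summed level was 512 CPM, between 461 CPM in A cells and 667 CPM in B cells. Ptgs2 had 73.6 CPM there (70.1 to 77.2), also between the classes, and Cd47 had 212 CPM. Of these cells, 9.20% were marked as doublets, against 1.87% of A cells and 2.33% of B cells.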

How the results depend on the processing

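The count of 3 members past 2-fold was 3 under all 8 alternatives of cells and scaling, 4 with no minimum level and 1 with a minimum of 50 CPM, where 4 members were tested. With no minimum, 42.4% of all features were past 2-fold. Centring on the median of all features moved every log2 ratio by 0.17 and changed the share of features past 2-fold that were higher in A cells from 58.8% to 46.5%. The median over the 10 members was then -0.26, and it was 0.031 in cells of 4000 to 6000 UMIs. Of 80 log2 ratios of single members, 70 stayed within their counting interval, and Pvr was the one member that changed sign, under centring. Of 40 shares of cells, 36 moved with the thinning depth. The median of chromosome 1 was -0.09 and that of chromosome 9 was -0.07 at 50 CPM, against 0.02 and 0.11. No paired analysis was possible because there was 1 library. Depth limits Cd274 and Vtcn1, which had under 3 CPM in each class.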
